A study of Mus musculus with 8 samples.

Results

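Neuropeptide and opioid receptor genes were examined in RNA sequencing of the mouse dorsomedial hypothalamus (DMH), a nucleus that takes part in feeding, arousal, body temperature and daily rhythms. A fixed list of 40 genes for G protein-coupled receptors of neuropeptides and opioids was taken by symbol from 55487 gene identifiers, and all 40 were matched. In 4 libraries (shPpp1r17) the tissue carried a hairpin RNA directed at Ppp1r17, whose protein inhibits phosphatases, and in the other 4 (shfLuc) a hairpin directed at firefly luciferase, a gene that mice lack. Both groups therefore carried a hairpin, and the sample names of all 8 carry the tag LMD, which commonly stands for laser microdissection. The sources used here do not give the strain, age and sex of the mice, the carrier of the hairpins or any pooling of animals. No label ties a library to its own animal, so p-values describe library-to-library spread, part of which may be technical.

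Neuropeptides are cut from larger precursors, stored in dense-core vesicles and released to act on G protein-coupled receptors, often at a distance from the release site. Receptors that couple to Gi/o proteins, such as the opioid, somatostatin and NPY receptors, lower cyclic AMP and open inwardly rectifying potassium channels. Receptors that couple to Gq, such as the neurokinin, cholecystokinin, orexin and TRH receptors, raise phosphoinositide turnover and calcium, and those that couple to Gs, such as the PACAP receptor, raise cyclic AMP. In the hypothalamus these receptors carry signals of hunger, stress, reward and arousal.

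The targeted transcript was measured first. Ppp1r17 had 147, 161, 161 and 171 CPM (read counts scaled to a common library total, with TMM factors for library composition) across the shfLuc libraries, in the order 1 to 4 used throughout. The shPpp1r17 libraries had 87.7, 2.07, 3.10 and 87.2 CPM. Every shPpp1r17 library lay below every shfLuc library (exact two-sided permutation p = 0.0286, the smallest that 4 against 4 libraries allow), and libraries 2 and 3 lay far below libraries 1 and 4. Across all genes, edgeR's quasi-likelihood test gave Ppp1r17 a log2 fold change of -1.83 (SE 0.80, adjusted p = 0.197). Library totals ran from 23070147 to 33907984 estimated reads.

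The tissue held markers of several cell types and of neighbouring nuclei, compared here by summed TPM (transcript abundance scaled to a common total, which corrects for gene length). Neuron markers summed to 5140 to 5450 TPM in shfLuc and 4840 to 5150 in shPpp1r17, with 1 of 12 called higher (Tubb3, 0.38 as log2 fold change) and 3 lower (Syt1 at -0.37 and Nefl at -0.39 among them) in edgeR at an adjusted p of 0.05. Astrocyte markers summed to 1130 to 1240 against 937 to 1090 (2 of 10 higher, 2 lower), oligodendrocyte markers to 734 to 801 against 734 to 1270 (3 of 10 higher) and microglia markers to 289 to 399 against 418 to 667 (5 of 10 higher). In blood cell markers 5 of 5 were called higher, in endothelium 1 of 8, in mural cells and fibroblasts 1 of 9, in ependyma, tanycytes and choroid plexus 2 of 8 tested with 1 lower, and in oligodendrocyte precursors 0 of 6 with 1 lower. Dorsomedial and tuberal markers, a list that includes Ppp1r17, summed to 3540 to 4230 against 2500 to 3480 TPM. Lateral hypothalamus and zona incerta markers summed to 3540 to 5280 against 2280 to 3360, paraventricular markers to 204 to 225 against 109 to 164, and ventromedial markers to 117 to 130 against 96.8 to 114. In these 4 lists 0 genes were called in edgeR. At its unadjusted p under 0.05, 5 of 13 tested dorsomedial and tuberal markers were lower (38.5%), as were 3 of 5 paraventricular (60.0%). In the lateral list 1 of 6 was lower and 1 higher (16.7% each), and 1 of 7 ventromedial markers was lower (14.3%). Over all genes 11.0% were lower and 11.6% higher at that level. The leading calls included C1qa (0.97) and C1qb (1.0) for microglia, Hbb-bs (0.99), Hba-a1 (0.93) and Hbb-bt (1.25) for blood, Cldn11 (1.02), Mobp (0.79) and Ermn (0.60) for oligodendrocytes, and singly Ly6c1 (0.84), Dcn (0.89), Crym (2.11), Rarres2 (0.64), Clic6 (-0.80) and Lhfpl3 (-0.34). Arcuate markers overlapped (567 to 661 against 597 to 756 TPM, 1 of 6 tested higher, Cartpt at 0.37). The sums of the dorsomedial, lateral, paraventricular and ventromedial lists rested mostly on a few abundant genes. In shfLuc, Gal averaged 3500 TPM, Pmch 2470, Hcrt 1600, Trh 179 and Dlk1 101. Scarcer members such as Sim1, Crh and Nr5a1 averaged 1.09, 0.907 and 0.515 TPM. A sum therefore does not stand for a whole nucleus. In bulk tissue fewer cells of a type and less RNA per cell cannot be told apart.

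Of the 40 receptor genes, 30 were expressed in shfLuc, taken as a mean of at least 1 TPM, and 36 had at least 10 reads in each of the 4 shfLuc libraries. The levels spanned a wide range: 6 genes reached 10 TPM, 24 lay between 1 and 10, and 10 lay below 1. Only a few neighbours in the order of levels could be told apart, since the shfLuc ranges of 5 of 39 adjacent pairs did not overlap. Those pairs were Ntsr2 above Adcyap1r1, Adcyap1r1 above Oprk1, Oprk1 above Npy2r, Trhr above Galr1, and Oprd1 above Vipr1.

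**Figure D1:**
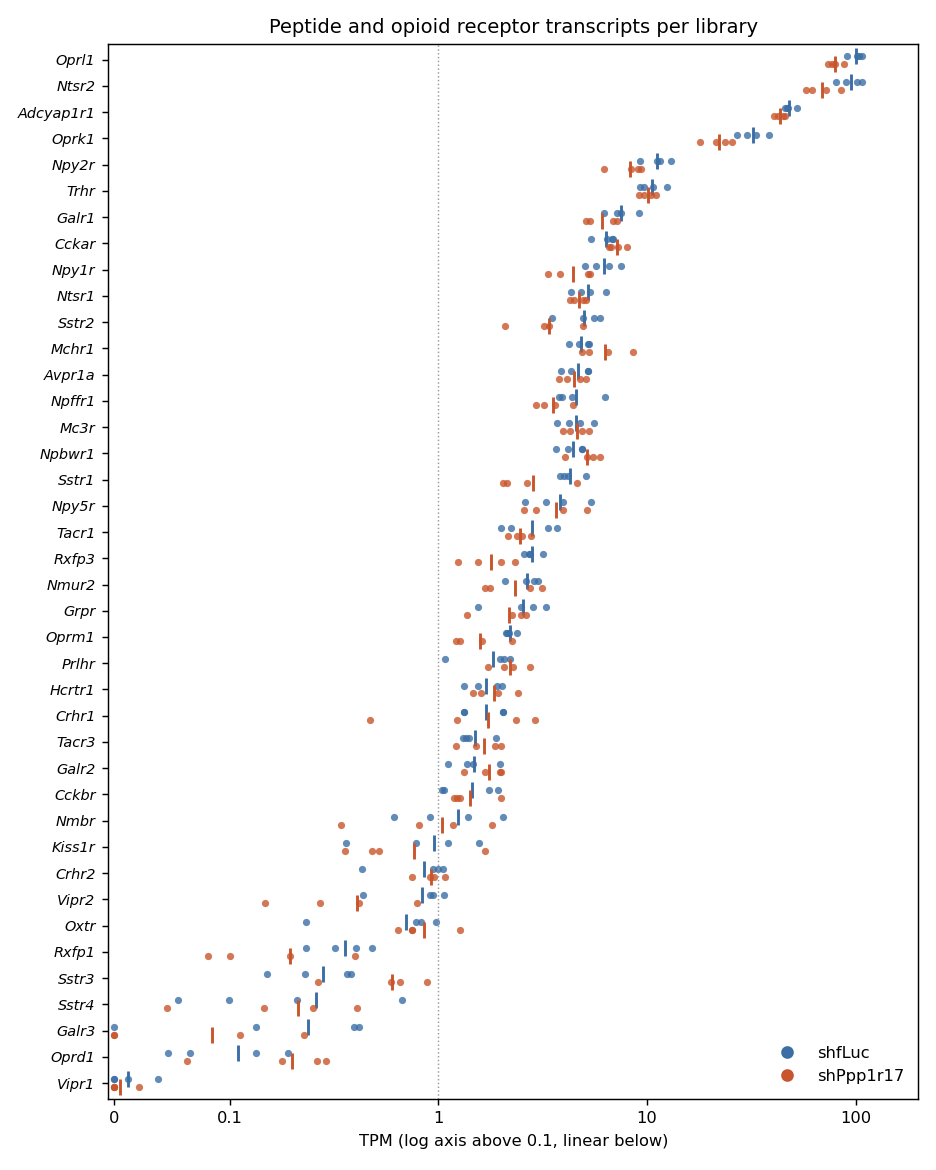
TPM of each of the 40 receptor genes in every library, ordered by the shfLuc mean, on an axis that is logarithmic above 0.1 and linear below; points are libraries, short vertical bars are group means and the dotted line marks 1 TPM. The first 4 genes, Oprl1, Ntsr2, Adcyap1r1 and Oprk1, stand apart from the rest, and the last 10 have shfLuc means below 1 TPM.

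Oprl1, the receptor of nociceptin, was the most abundant of the 40, at 102, 104, 107 and 90.5 TPM in shfLuc. Only 8.83% of all tested genes had a higher mean TPM. Ntsr2, a neurotensin receptor known from astrocytes as well as neurons, followed at 80.1, 101, 90.1 and 107 TPM, and its range overlapped that of Oprl1. Adcyap1r1, the PAC1 receptor of PACAP, stood at 45.9, 52.2, 47.1 and 47.3 TPM. Oprk1, the kappa opioid receptor, which binds dynorphins, stood at 38.6, 33.2, 30.0 and 27.0 TPM.

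Families were unevenly shared out. Each share is of the family's genes on the list of 40, which does not hold every receptor of every family. Oprl1 made up 74.6% ± 2.26 (SD, n = 4) of the summed TPM of the 4 opioid and nociceptin receptors in shfLuc, while Oprm1, the mu receptor, stood at 2.11 to 2.38 TPM and Oprd1, the delta receptor, at 0.047 to 0.191 TPM. Oprm1 shares exonic bases with Ipcef1 on the opposite strand, and the strandedness of the counts is not given in the sources used here. Ntsr2 made up 86.6% ± 2.35 of the galanin and neurotensin receptors, with Ntsr1, the other neurotensin receptor, at 4.33 to 6.35 TPM. Adcyap1r1 made up 98.3% ± 0.584 of the VIP and PACAP receptors. The NPY and melanocortin group was more even: Npy2r, a mostly presynaptic NPY receptor, made up 43.5% ± 4.60, beside Npy1r at 5.02 to 7.50 TPM, Npy5r at 2.60 to 5.39 and Mc3r, a melanocortin receptor, at 3.69 to 5.55.

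Among the remaining receptors at or above 1 TPM were Trhr, the TRH receptor, at 9.25 to 12.5 TPM, Galr1, the main inhibitory galanin receptor, at 6.25 to 9.16 TPM and Cckar, the cholecystokinin A receptor, at 5.39 to 6.83 TPM. Receptors below 1 TPM were Kiss1r, the kisspeptin receptor, Crhr2 of the urocortins, Vipr2 of VIP and PACAP, Oxtr, the oxytocin receptor, Rxfp1 of relaxin, Sstr3, Sstr4, Galr3, Oprd1 and Vipr1. Kiss1r shares exonic bases with R3hdm4 on the opposite strand, which had up to 917 reads in a library against at most 45 for Kiss1r, and Galr3 shares them with Gcat on its own strand. Vipr1 had 1, 3, 0 and 0 reads in shfLuc, and the libraries with 0 reads allow up to 0.129 and 0.117 CPM (3 reads, counting error only). Galr3 had 0, 1, 3 and 4 reads, and its 0 allows up to 0.130 CPM.

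The start of the gene is shown for Ntsr2 and Oprd1, which lie near opposite ends of the range of levels and were chosen after their values were seen. RefSeq promoter entries (GRCm38.p6, 250 bases before to 50 after the annotated start) were found for 32 of the 40 genes. CpG dinucleotides are in capitals. The window of Ntsr2 is chr12:16653220-16653519 on the plus strand and that of Oprd1 is chr4:132144437-132144736 on the minus strand.
Ntsr2: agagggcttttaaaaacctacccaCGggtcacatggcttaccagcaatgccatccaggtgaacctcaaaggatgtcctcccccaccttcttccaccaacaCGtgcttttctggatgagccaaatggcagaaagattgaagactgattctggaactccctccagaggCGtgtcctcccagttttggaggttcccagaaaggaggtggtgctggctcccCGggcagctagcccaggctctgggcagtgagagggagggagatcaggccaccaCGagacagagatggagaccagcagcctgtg
Oprd1: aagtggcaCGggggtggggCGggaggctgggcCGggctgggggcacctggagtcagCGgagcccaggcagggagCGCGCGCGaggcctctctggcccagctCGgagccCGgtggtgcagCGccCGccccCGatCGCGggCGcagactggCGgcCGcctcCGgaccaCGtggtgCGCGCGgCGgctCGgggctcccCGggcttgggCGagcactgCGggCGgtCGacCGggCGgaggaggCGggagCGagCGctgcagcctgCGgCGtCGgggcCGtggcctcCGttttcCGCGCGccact
The abundant Ntsr2 holds 5 CpG in this window and the barely detected Oprd1 holds 43. Taking the entry with the most CpG for each gene, the median was 11.0 over the 24 receptor genes at 1 TPM or more, 21.5 over the 8 below 1 TPM and 8.0 over 27025 genes with an entry. Across the 32 receptor genes, Spearman's rho between CpG count and mean shfLuc TPM was -0.28. With the entry holding the fewest CpG for each gene it was -0.21. Both values describe genes that are not independent and whose start sites in this tissue were not measured.

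Peptide precursors for these receptors were compared as a list of 35 genes. The galanin precursor Gal stood at a mean of 3500 TPM in shfLuc, Pmch, the precursor of melanin-concentrating hormone, at 2470 TPM and Hcrt, the orexin precursor, at 1600 TPM, all well above their receptors Galr1, Mchr1 and Hcrtr1, which had means of 7.52, 4.85 and 1.70 TPM. Among opioid precursors Penk stood at 245 TPM, Pdyn at 143 TPM and Pnoc, the nociceptin precursor, at 23.3 TPM, so Pnoc lay below its receptor Oprl1. Avpr1a, a vasopressin receptor, had a mean of 4.65 TPM, while Avp, the vasopressin precursor, had 0 reads in every shfLuc library, which allows up to 0.117 to 0.130 CPM a library.

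The question of the hairpin comparison is which receptor transcripts differ when Ppp1r17 is lowered. Of the 40 genes, 37 passed the filter on low counts, and Sstr4, Galr3 and Vipr1 did not. In edgeR's quasi-likelihood test with Benjamini-Hochberg adjustment over 17339 genes, 0 of the 37 passed an adjusted p of 0.05 in either direction, against 6.06% of all genes (2.66% lower and 3.39% higher). At an unadjusted p under 0.05 there were 8 of 37, or 21.6%, against 22.6% of all genes. Of these, 5 were lower (13.5%, against 11.0%) and 3 were higher (8.11%, against 11.6%). The receptors' shares thus lay near those of all genes. Their median log2 fold change was -0.067, beside 0.004 for all genes, with 20 below 0 and 17 above. In DESeq2 and in limma voom with sample quality weights 4 of 37 passed, all lower, against 5.37% and 4.99% of all genes called lower and 5.73% and 5.17% called higher. On simulated data DESeq2 made a larger share of false calls than edgeR or limma, above its nominal level. That simulation changed fewer genes than were called here and took each gene's spread from a common trend. Its share of false calls therefore does not carry over to these receptors. In limma voom without weights 0 passed, against 2.75% of all genes lower and 3.03% higher, and 10 receptors (27.0%) had an unadjusted p under 0.05 against 22.4% of all genes. In edgeR with no filter on low counts 2 passed, Oprk1 and Ntsr2, both lower, against 2.18% of all genes lower and 2.61% higher.

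**Figure D2:**
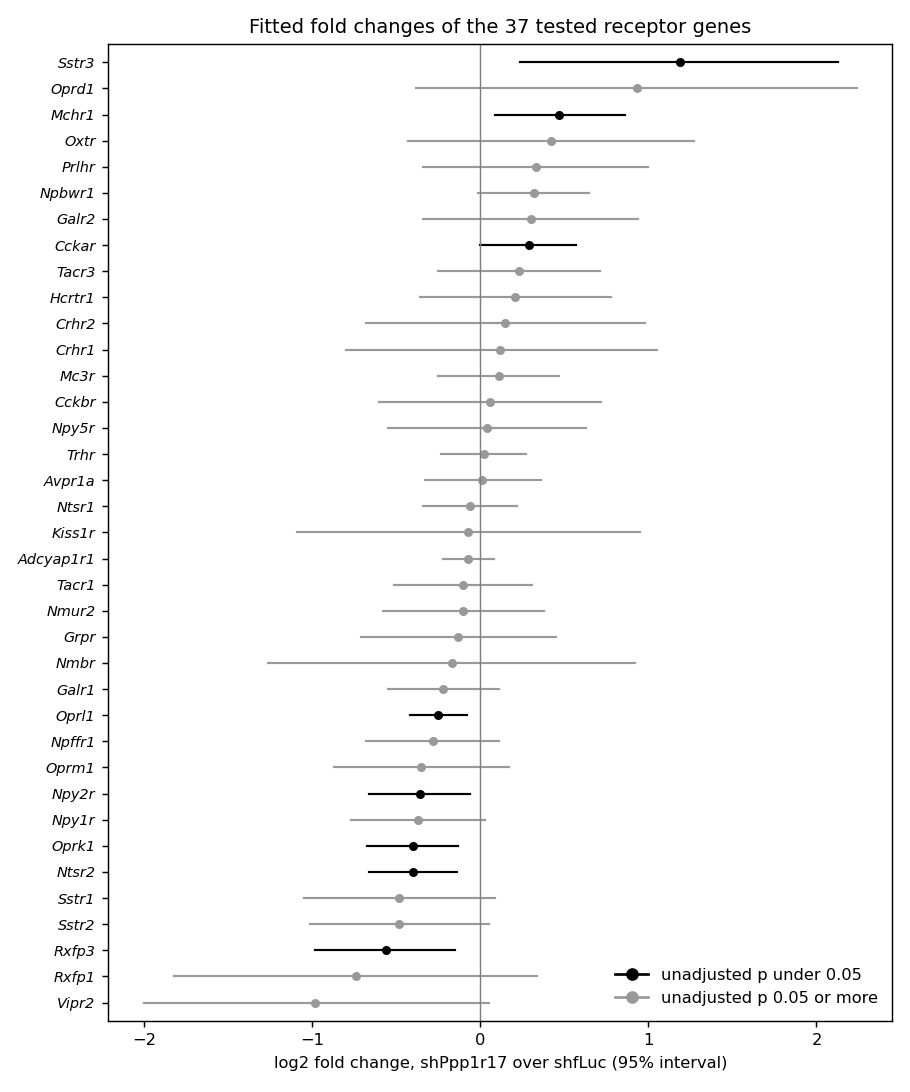
Fitted log2 fold change (shPpp1r17 over shfLuc) of the 37 tested receptor genes with 95% intervals from edgeR; black marks an unadjusted p under 0.05. No gene passed the adjusted threshold, the abundant Adcyap1r1 has the narrowest interval (-0.22 to 0.08), and the intervals of Vipr2, Rxfp1, Oprd1 and Sstr3, which lie farthest from 0, are wide.

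Oprl1, Ntsr2, Oprk1 and Rxfp3 came closest to the threshold, with an adjusted p under 0.1 and lower values in shPpp1r17. They were 10.8% of the 37, and 5.39% of all genes were lower at that level. The same 4 were the receptors called lower in DESeq2 and in limma voom with quality weights. Within shPpp1r17, Oprl1, Ntsr2 and Oprk1 were lowest in libraries 2 and 3, Rxfp3 was lowest in libraries 1 and 3, and all 4 were highest in library 4. Libraries 2 and 3 also had the highest summed markers of oligodendrocytes (788, 1230, 1270 and 734 TPM in shPpp1r17 1 to 4) and microglia (486, 667, 632 and 418 TPM) and the lowest of the dorsomedial and tuberal list (3140, 2540, 2500 and 3480 TPM). Gal made up most of the dorsomedial and tuberal sum. The part of these marker shifts in the receptor values was not tested.

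Oprl1 (chromosome 2, 181715016 to 181720985, plus strand, GRCm38) stood at 208, 202, 203 and 175 CPM in shfLuc and 166, 158, 156 and 182 CPM in shPpp1r17. The groups overlapped through shfLuc 4 and shPpp1r17 4. The log2 fold change was -0.25 (SE 0.08, 95% interval -0.42 to -0.08) with an adjusted p of 0.0755 in edgeR. Oprl1 alone of the receptors passed on log2(TPM + 1) with limma (-0.34, adjusted p = 0.0451; 2.57% of genes were called lower and 1.54% higher there). In TPM its groups did not overlap.

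Oprk1 (chromosome 1, 5588466 to 5606131, plus strand) stood at 72.7, 57.5, 54.5 and 53.4 CPM in shfLuc and at 48.3, 41.1, 37.8 and 53.2 CPM in shPpp1r17. The groups did not overlap, by a narrow margin between shfLuc 4 and shPpp1r17 4. Its log2 fold change was -0.40 (SE 0.12, 95% interval -0.67 to -0.13) with an adjusted p of 0.0739 in edgeR. The other opioid receptors gave a log2 fold change of -0.35 for Oprm1 (95% interval -0.87 to 0.17) and 0.93 for Oprd1 (-0.38 to 2.24), neither past the threshold. Oprd1 stood at 0.130, 0.511, 0.171 and 0.354 CPM in shfLuc and at 0.508, 0.820, 0.767 and 0.176 CPM in shPpp1r17, from 3 to 21 reads a library, and the groups overlapped. Without shPpp1r17 2 and 3 its value was 0.20. The precursors of the opioid peptides were not called either, with Penk at -0.51 (adjusted p = 0.125), Pdyn at -0.01 (0.977) and Pnoc at 0.13 (0.440) in edgeR.

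Ntsr2 (chromosome 12, 16653382 to 16660227, plus strand) stood at 72.3, 88.3, 75.3 and 93.0 CPM in shfLuc and at 66.1, 52.3, 55.5 and 75 CPM in shPpp1r17. The groups overlapped, since shPpp1r17 4 lay above shfLuc 1. Its log2 fold change was -0.40 (SE 0.12, 95% interval -0.66 to -0.14) with an adjusted p of 0.0655 in edgeR. Among the 10 astrocyte markers, Slc1a3, a glutamate transporter (-0.46, adjusted p = 0.0320), and Agt, angiotensinogen (-0.61, adjusted p = 0.0215), fell, while Gfap, an intermediate filament (1.82, adjusted p = 0.0124), and S100b, a calcium-binding protein (0.29, adjusted p = 0.0341), rose. Their part in the Ntsr2 value was not tested. Nts, the neurotensin precursor, averaged 33.1 ± 2.88 CPM (SD, n = 4) in shfLuc and 48.1 ± 4.14 CPM in shPpp1r17 and rose by 0.54 on the log2 scale (SE 0.09, adjusted p = 0.0113 in edgeR). Ntsr1 stood at -0.06 (95% interval -0.34 to 0.22).

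Rxfp3 (chromosome 15, 11033717 to 11037991, minus strand), the receptor of relaxin-3, stood at 7.95, 8.18, 9.23 and 8.30 CPM in shfLuc and at 4.92, 6.36, 4.09 and 7.35 CPM in shPpp1r17. The groups did not overlap. The log2 fold change of -0.56 (SE 0.19, 95% interval -0.98 to -0.15) had an adjusted p of 0.0991 in edgeR. Rln3, its ligand's gene, did not pass the filter on low counts.

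Npy2r also had an unadjusted p under 0.05. It stood at 26.5, 28.3, 20.6 and 25.7 CPM in shfLuc and at 22.4, 19.7, 14.9 and 21.9 CPM in shPpp1r17, and the groups overlapped (log2 fold change -0.36, 95% interval -0.66 to -0.06, adjusted p = 0.142 in edgeR). Npy1r gave -0.37 (-0.77 to 0.03), Npy5r 0.04 (-0.55 to 0.63) and Mc3r 0.11 (-0.25 to 0.47), none of them past the threshold.

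**Figure D3:**
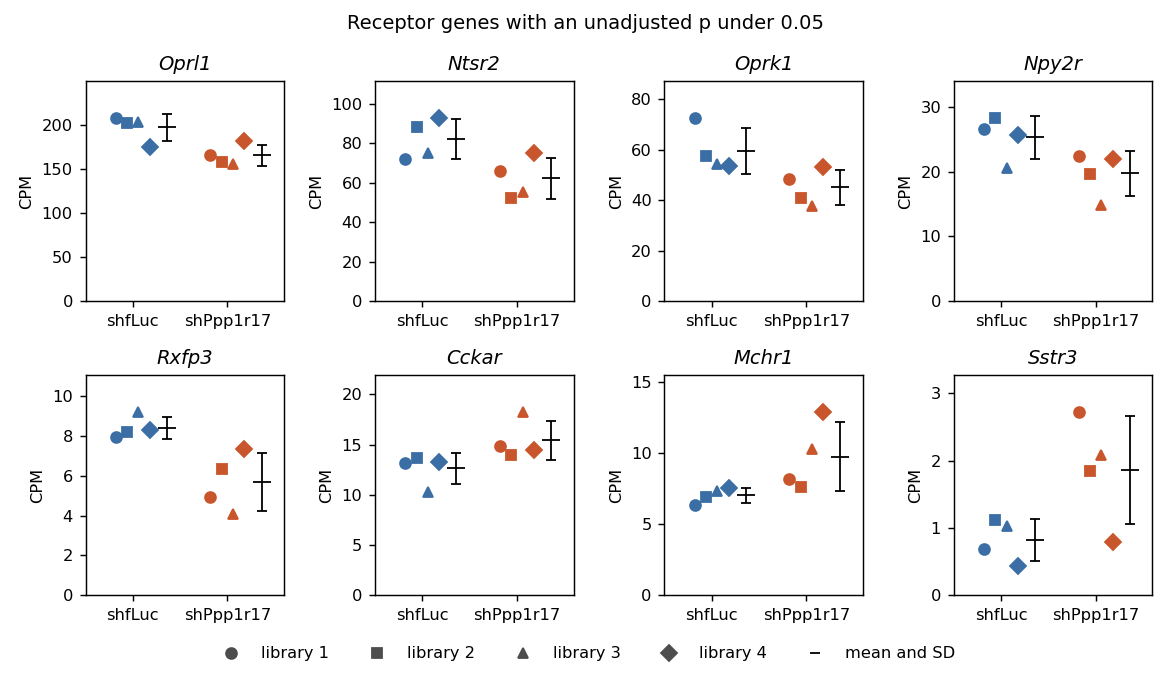
CPM in every library of the 8 receptor genes with an unadjusted p under 0.05; marker shapes give the library number, and the black bars show the mean and SD of 4 libraries. Oprk1 and Rxfp3 do not overlap downward, Cckar and Mchr1 do not overlap upward, and the other 4 overlap.

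Cckar, Mchr1 and Sstr3 were the 3 receptors higher at an unadjusted p under 0.05. Cckar stood at 13.2, 13.7, 10.3 and 13.3 CPM in shfLuc and at 14.9, 14.0, 18.3 and 14.5 CPM in shPpp1r17 (log2 fold change 0.29, SE 0.13, adjusted p = 0.220 in edgeR). Mchr1, the receptor of melanin-concentrating hormone, stood at 6.35, 6.86, 7.31 and 7.55 CPM against 8.13, 7.58, 10.3 and 12.9 CPM (0.47, SE 0.18, adjusted p = 0.136 in edgeR). Neither gene's groups overlapped in CPM, but both overlapped in TPM. Cckar was at 0.19 without shPpp1r17 3 and Mchr1 at 0.31 without shPpp1r17 4. Counted over the 37 genes, the groups did not overlap in CPM for 2 lower and 2 higher (5.41% each, against 6.74% and 7.12% of all genes), and in TPM for 4 lower and 0 higher (against 9.85% and 4.33%). The 4 in TPM were Oprl1, Oprk1, Adcyap1r1 and Rxfp3.

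Somatostatin receptors pointed in different directions without a call. Sstr3 stood at 0.691, 1.11, 1.03 and 0.433 CPM in shfLuc and at 2.73, 1.84, 2.08 and 0.794 CPM in shPpp1r17, from 11 to 70 reads a library (log2 fold change 1.19, 95% interval 0.24 to 2.13, adjusted p = 0.128 in edgeR). Sstr1 stood at 5.19, 5.54, 4.44 and 4.72 CPM against 5.90, 2.69, 2.67 and 3.03 CPM, and without shPpp1r17 1, which lay above all shfLuc libraries, it passed in edgeR (-0.83, adjusted p = 0.0337; 3.88% of genes were called lower and 4.18% higher in that fit). Sstr2 stood at 5.27, 7.24, 7.86 and 8.61 CPM against 7.62, 5.27, 3.32 and 4.59 CPM (-0.48, 95% interval -1.01 to 0.05). Sstr3 made up 2.67%, 3.57%, 3.70% and 1.47% of the summed TPM of the 4 listed somatostatin receptors in the shfLuc libraries. In the shPpp1r17 libraries it made up 8.16%, 9.68%, 13.0% and 4.26%. Those shares did not overlap, but in CPM the Sstr3 groups did. The share also depends on Sstr1 and Sstr2, both fitted at -0.48. It was computed per library for Sstr3 only, so no frequency of such a separation over other genes stands beside it. Sst, the somatostatin precursor, gave -0.41 with an adjusted p of 0.341 in edgeR.

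Adcyap1r1, Trhr and Galr1, among the 8 receptors highest in TPM, had intervals that included 0, the widest of them for Galr1. Adcyap1r1 stood at 204, 224, 195 and 202 CPM in shfLuc and at 184, 203, 199 and 201 CPM in shPpp1r17 (log2 fold change -0.07, 95% interval -0.22 to 0.08). Trhr stood at 32.6, 26.1, 23.9 and 24.4 CPM against 24.7, 29.4, 25.3 and 29.1 CPM (0.02, -0.23 to 0.27). Galr1 stood at 19.0, 15, 14.1 and 12.8 CPM against 11.3, 14.4, 11.1 and 15.2 CPM (-0.22, -0.55 to 0.11, and -0.10 without shfLuc 1), beside a Gal precursor at -0.31 (adjusted p = 0.0659 in edgeR). Of the 30 expressed receptors, 25 had a 95% interval within a 2-fold difference either way and 10 within 1.5-fold. These intervals are from the fit and bound the size of a difference without showing that none exists.

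The largest fitted differences lay in scarce transcripts. Vipr2 stood at 2.68, 2.22, 2.22 and 1.06 CPM in shfLuc and at 2.03, 0.703, 1.06 and 0.382 CPM in shPpp1r17 (log2 fold change -0.98, 95% interval -2.0 to 0.05, adjusted p = 0.245 in edgeR). Rxfp1 stood at 1.99, 1.28, 0.897 and 1.30 CPM against 1.68, 0.820, 0.438 and 0.353 CPM (-0.74, -1.82 to 0.34). Single libraries moved both: without shPpp1r17 1 the values were -1.52 for Vipr2 and -1.35 for Rxfp1, and without shPpp1r17 4 Rxfp1 was at -0.48. Both overlapped between the groups, and at 12 to 62 reads a library differences of this size were not resolved. The remaining tested receptors, for vasopressin, oxytocin, CRH, orexin, tachykinins, bombesin-like peptides, neuromedin U, RFamides and kisspeptin among others, overlapped between the groups and had an unadjusted p of 0.05 or more.

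Sorted by the G protein they are known to couple to, 10 of 15 tested Gi/o receptors lay below 0 and 5 above (median log2 fold change -0.28), 6 of 14 Gq receptors lay below and 8 above (0.02), and 3 of 6 Gs receptors lay below and 3 above (0.02). Summed TPM of the Gi/o receptors, of which Oprl1 alone made up 52.9% ± 1.89 in shfLuc, was 191 ± 11.9 in shfLuc and 150 ± 14.4 in shPpp1r17 (SD, n = 4). For Gq receptors it was 43.8 ± 3.06 against 42.7 ± 2.67, and for Gs receptors 56.4 ± 2.68 against 51.2 ± 1.78. Ntsr2 and Prlhr, the 2 tested receptors of mixed or unsure coupling, were left out of the counts above. Their summed TPM was 96.4 ± 12.2 against 71.5 ± 12.1. Ntsr2 made up 98.1% ± 0.524 of that sum in shfLuc, so it describes Ntsr2 more than a coupling class. On log2(TPM + 1) the median log2 fold change of all genes was -0.067, against 0.004 in edgeR. Lower TPM sums in shPpp1r17 are to be read beside that. These values describe the list, and no test was made on them.

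The downstream signalling genes gave a few calls. Of 41 tested genes for G proteins, adenylyl cyclases, phospholipases, arrestins, receptor kinases, RGS proteins, potassium channels and protein kinase A subunits, 4 fell (9.76%) and 0 rose in edgeR, against 2.66% and 3.39% of all genes. At an unadjusted p under 0.05, 7 were lower (17.1%) and 2 higher (4.88%), against 11.0% and 11.6% of all genes. Gng2, a G protein gamma subunit, fell from a mean of 193 ± 3.80 (SD, n = 4) to 147 ± 8.54 CPM (log2 fold change of -0.40, adjusted p = 0.0112). Arrb1, beta-arrestin 1, which ends receptor signalling, fell from 64.3 ± 4.48 to 44.7 ± 7.49 CPM (-0.52, adjusted p = 0.0214). Grk3, a receptor kinase, fell by 0.33 on the log2 scale (adjusted p = 0.0314) and Plcb4, a phospholipase C, by 0.29 (adjusted p = 0.0394). Among the 27 tested precursors 1 rose, Nts, and 0 fell. At an unadjusted p under 0.05, 6 precursors were lower (22.2%) and 2 higher (7.41%). Without shfLuc 2 or without shfLuc 3, 0 of these 5 calls were made, but 0 genes of any kind were called in those fits. Without the shPpp1r17 libraries 2 and 3, 0 of the 5 were called, and over all genes only 11 were lower and 26 higher. The loss of these calls is thus not particular to these genes.

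The 3' untranslated regions of the receptor transcripts were searched for CTCTGAT or TCTGATA on the transcript strand, overlapping 7-base sequences that went with lower fold changes in an earlier analysis of these same libraries, so this is no independent support for it. With GENCODE M21 transcripts of GRCm38, 5 of the 37 tested receptor genes held a match (13.5%), beside 18.7% of 14254 tested genes searched. The searched regions had a median length of 1604 bases in the receptor genes and 1224 in all genes searched, and the shares were not adjusted for length. The 5 matches are printed to show which receptors carry them, in capitals between flanking bases.
Sstr2: tcttgtgaTCTGATAtttacatt
Cckbr: ggctcactTCTGATAtgggactg
Oxtr: tgcaggtgCTCTGATtccctgct
Vipr2: gtccttaaCTCTGATcctcatgt
Npbwr1: aaatttccCTCTGATtttggtgt
The matched bases lie at chr11:113625734-113625740 for Sstr2, chr7:105435614-105435620 for Cckbr and chr12:116144420-116144426 for Vipr2, on the plus strand, and at chr6:112474545-112474551 for Oxtr and chr1:5914693-5914699 for Npbwr1, on the minus strand. Their log2 fold changes were -0.48, 0.06, 0.42, -0.98 and 0.32 for Sstr2, Cckbr, Oxtr, Vipr2 and Npbwr1. The median was 0.06 with a match and -0.07 without among receptor genes, and -0.12 with and 0.02 without among all genes searched. Oprl1, Ntsr2, Oprk1, Rxfp3 and Npy2r, the 5 receptors lower at an unadjusted p under 0.05, held no match in the searched regions.

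The calls among the 4 receptors nearest the threshold turned on the tool and on single libraries. Without shPpp1r17 4, the library in which all 4 were highest of that group, edgeR called Oprl1 (-0.30), Ntsr2 (-0.51), Oprk1 (-0.49) and Rxfp3 (-0.72) lower with adjusted p of 0.0348, 0.0189, 0.0299 and 0.0351, against 3.98% of all genes, and Sstr3 higher (1.44, adjusted p = 0.0398, against 4.75%). When libraries 2 and 3 of shPpp1r17 were both left out, a choice made with the data in view, the values were -0.18, -0.22, -0.23 and -0.45 with adjusted p from 0.370 to 0.482 in edgeR, 3 of 37 receptors (8.11%) had an unadjusted p under 0.05 against 12.8% of all genes, and by adjusted p 0.061% of all genes were lower and 0.144% higher.

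**Figure D4:**
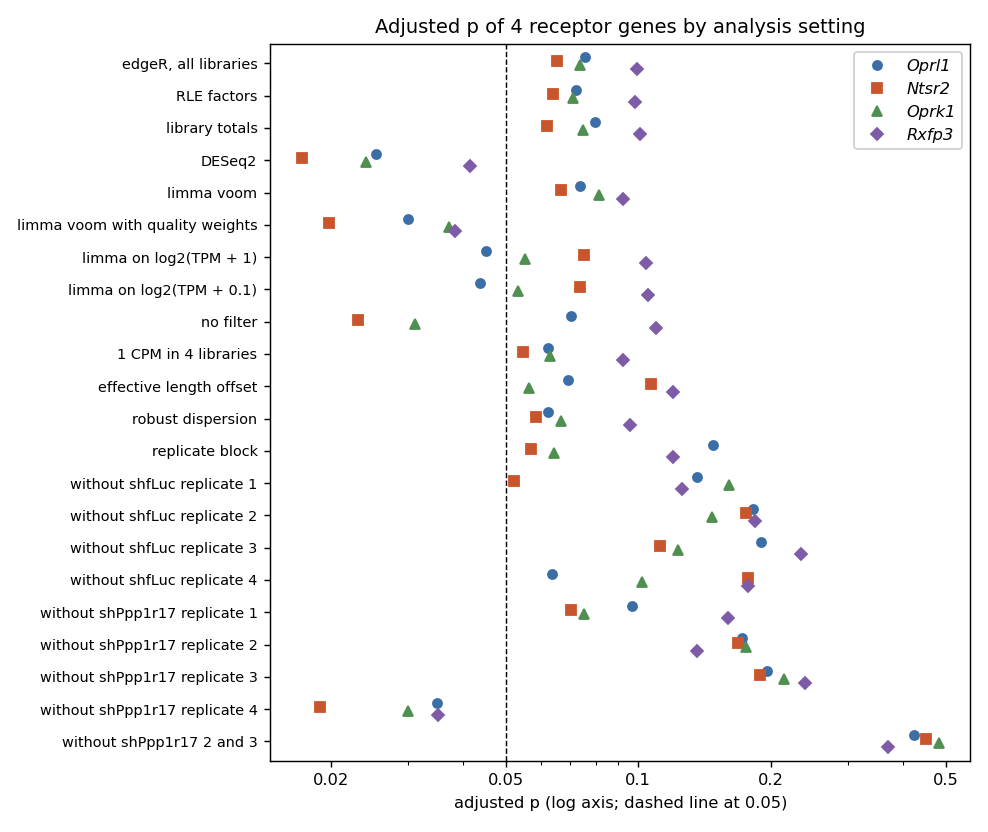
Adjusted p of Oprl1, Ntsr2, Oprk1 and Rxfp3 (log axis) under each analysis setting, with the dashed line at 0.05. All 4 lie left of the line with DESeq2, with limma voom with quality weights and without shPpp1r17 4, and all lie farthest right without shPpp1r17 2 and 3.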

How the data were processed

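Per the labels' protocols, RNA from 8 tissue samples was purified with a PicoPure kit, and SMARTer chemistry was used for the mRNA libraries. Each deposited gene table holds length, effective length, TPM and estimated counts for 55487 genes, per the file headers. Tools named in the submitters' processing notes are DRAGEN, bcl2fastq, limma and edgeR; the sources used here do not give the build, annotation or settings. For the tests, the authors' estimated (expected) counts were rounded to whole numbers. Reads amplified by PCR and lacking molecular identifiers are not independent molecules.

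The main test was edgeR 4.0.16 (R 4.3.3), quasi-likelihood, TMM, a filter (minimum count 10, total 15), the group as the single term and Benjamini-Hochberg adjustment over 17339 genes at 0.05. Standard errors and 95% intervals came from the F statistic. TPM deposited by the authors was used for levels between genes, since its scale corrects for length. Alternatives were DESeq2 1.42.0, limma 3.58.1 (voom, quality weights, log2(TPM + 1) and log2(TPM + 0.1) over genes at 0.5 TPM), other scaling (RLE, library totals), filters and dispersion, an effective-length offset, a replicate block, and leaving out each library. Scripts were tested on simulated data, where DESeq2 exceeded its nominal share of false calls the most. Chi-square per degree of freedom between replicates was 7.48 to 41.1, so no library was a second sequencing run of another. These values cannot tell whether separately amplified libraries came from the same RNA.

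Values in every library are given for receptors past the threshold, with groups not overlapping, among the 8 highest in TPM or the 4 largest fold changes; Sstr1 and Sstr2 were added after their values were seen. The receptors and lists were chosen with earlier results of these data known.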

Additional observations from a re-analysis of the deposited data

Results flagged for a closer look

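In each of the 37 tested receptor genes, the most extreme library of each group of 4 was compared with the rest of its group, which gave 74 groups. Chance flags about 1 in 20 such groups, and 7 were flagged. In shfLuc, library 3 stood apart for Cckar (10.3 CPM, others 13.2 to 13.7) and Prlhr (0.983 CPM, others 1.90 to 2.09), and library 1 for Crhr2 (0.605 CPM, others 1.75 to 1.88). In shPpp1r17, library 1 stood apart for Sstr1 (5.90 CPM, others 2.67 to 3.03), library 2 for Oxtr (3.87 CPM, others 2.06 to 2.23), library 3 for Cckbr (3.62 CPM, others 2.03 to 2.23) and library 4 for Oprm1 (3.03 CPM, others 1.99 to 2.12).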

How the results depend on the processing

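The count of receptor genes called lower, 0 in edgeR, was 4 with DESeq2 and with limma voom with quality weights, 1 on log2(TPM + 1) and on log2(TPM + 0.1), 2 with no filter, and 0 to 4 with each library left out; the count called higher was 0 to 1. Over all genes, edgeR's 462 lower and 588 higher became 931 and 994 with DESeq2, and 866 and 897 with quality weights. With log2(TPM + 1) and log2(TPM + 0.1), 260 and 271 were higher, and the share of calls that were higher was 37.4% and 38.1% in place of 56.0%. Leaving out 1 library gave 0 to 706 lower and 0 to 842 higher, with 0 called in edgeR without shfLuc 2 or without shfLuc 3, where 3309 and 3146 genes had an unadjusted p under 0.05. Without shPpp1r17 2 and 3 it was 11 and 26. The 5 precursor and signalling genes called became 10 with quality weights, 3 on either TPM scale, 9 with no filter, 0 to 9 with a library left out and 0 without shPpp1r17 2 and 3. Ppp1r17 passed with limma voom (-3.31), with quality weights (-3.85) and without shPpp1r17 2 and 3 (-0.88). With the replicate block, 302 genes were lower and 0 receptors were called. Same-numbered libraries correlated at -0.0116 to 0.116, and 2 of 4 correlated best with their own number. So few libraries cannot tell whether those of the same number shared a batch. Of the 14 receptors followed through 21 alternatives, Trhr turned its sign, at -0.05 and -0.06 on the TPM scales and -0.03 to 0.13 with a library left out. The other 13 kept their sign wherever they were tested. The number of expressed receptors, 30, was 34 at 0.5 TPM, 23 at 2 TPM and 29 to 31 with a shfLuc library left out. The causes of these shifts were not tested. The 10 receptors below 1 TPM had under 100 reads in every library, and none of the 7 tested had a 95% interval within 1.5-fold either way.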
